A study of Mus musculus with 22 samples.

Results

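Phf8, Kdm5c, Atrx, Phf6, Brwd3, Med12, Zfp711, Huwe1 and Cul4b are 9 genes of the mouse X chromosome whose human counterparts are mutated in inherited intellectual disability, and whose proteins act on chromatin, on transcription or on the ubiquitin system. Their RNA was read in whole mouse brain by 25 of the 41174 probes of a dual-colour array, which stand for 9 of 19376 gene symbols. A probe was taken where its name in the scanner files is the symbol or an older synonym of 1 of the 9 genes, and every probe was kept apart. Older names were Jarid1c for Kdm5c, Tnrc11 for Med12, 4833408C14Rik for an Atrx probe, D030064D06Rik for Brwd3, A230078I01Rik and 2810409C01Rik for Zfp711 and C430014N20Rik for Huwe1. Huwe1 had 7 probes, Phf6, Brwd3 and Zfp711 had 3 each, Phf8, Kdm5c, Atrx and Med12 had 2 each, and Cul4b had 1.

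The animals compared were labelled Agtr2 knockout or control. Agtr2 is itself X-linked and codes for the type 2 receptor of the peptide hormone angiotensin II. At postnatal day 1 (P1) 4 knockout and 4 control animals were hybridized on 8 arrays, and at embryonic day 15 (E15) 8 knockout and 6 control animals on 14 arrays. Each array carried the RNA of 1 knockout and 1 control animal in Cy3 and Cy5, and dyes were swapped in all replicates except E15 replicates 3 and 4, which had 1 array each. In E15 replicates 1 and 2 the control animal changed along with the dye, so their arrays are not swaps of the same pair. The labels give neither the strain, the allele, the sex of the animals nor a treatment, and they describe the replicates as biological, so the p-values given measure the spread between these animals. The 6 E15 controls served 8 knockout animals, so that replicates 1, 4 and 7 and replicates 2, 3 and 8 are joined by shared controls.

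Chromatin carries chemical marks that proteins write, read and remove, and ubiquitin ligases mark proteins, chromatin regulators among them, for destruction or for a change of function. Phf8 and Kdm5c are histone demethylases of the jumonji class: Phf8 binds active promoters and removes repressive methyl groups from histone tails, and Kdm5c removes the methyl groups that mark active promoters. Zfp711 is a zinc finger protein that, in human cells, brings PHF8 to promoters, KDM5C among them. Atrx remodels chromatin and places a histone variant at repeats with its partner Daxx, Phf6 is a nuclear protein with PHD-like zinc fingers, and Brwd3 holds bromodomains and WD repeats. Med12 belongs to the kinase module of Mediator, the complex that joins transcription factors to RNA polymerase II. Huwe1 is a large HECT ubiquitin ligase that acts on Mycn, Myc, Mcl1 and other proteins, and Cul4b is the scaffold of a cullin-RING ligase.

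Facts of the arrays that touch the results come first. The share of spots well above background was 71.3% to 89.5% at P1 and 74.9% to 89.3% at E15. The E15 arrays were scanned on 3 days, with replicates 1 to 4 on scan day 3 and replicates 5 to 8 on scan days 1 and 2, and all P1 arrays on a day of their own, later, with a later version of the scanner software, so that age, scan and software cannot be told apart. The Agtr2 probe did not differ between the groups past the threshold at P1 (log2 change 0.11, SE 0.08, adjusted p = 0.687) or at E15 (log2 change -0.39, SE 0.30, adjusted p = 0.784). Its log2 levels were 6.045 to 6.363 in P1 knockout animals and 6.069 to 6.236 in P1 controls. At E15 they were 6.221 to 7.088 in knockout animals, 9.185 in control 1 and 6.160 to 6.982 in the other controls. The E15 ratios ran from -2.10 in replicate 4, hybridized with control 1, to 0.87 in replicate 8. Where the Agtr2 probe lies relative to the deletion is not known here, and the knockout label was taken as given. Of the markers of skeletal muscle, the summed signal was 876 to 14700 units in E15 knockout animals, with replicate 8 at the top, and 830 to 25870 in E15 controls, with control 1 at the top. It was 752 to 1065 in P1 knockout animals and 708 to 1099 in P1 controls. Markers of meninges and fibroblasts did likewise, with 59030 units in E15 knockout 8 and 4641 to 9264 in the other 7, against 58100 in E15 control 1, 20870 in control 2 and 4563 to 10060 in the other 4. Each of the 8 muscle and 10 meningeal markers was well above background in at least 50% of channels at both ages, and 0 of those tested passed between knockout and control. Among 8 sex-linked genes were Xist, the non-coding RNA that coats the inactive X chromosome, and Ddx3y of the Y chromosome. Each of the 8 was well above background in at least 50% of channels at both ages, and 0 passed between knockout and control. The sex of single animals was not read from these levels. A test between the groups cannot show whether knockout and control animals, or the ages, were matched for sex. The labels name the source as whole brain and also speak of frozen brain slices, and differences in the tissue taken were not tested. In such RNA, fewer cells that express a gene and less RNA of it per cell cannot be told apart.

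In knockout brains no member differed from its control past the threshold at either age. Of the 20 member probes that could be tested at P1, 14 lay above 0 and 6 below, with a median log2 change of 0.06, against 0.005 over all 34283 probes tested. At E15 the median of 22 member probes was 0.06, with 16 above 0 and 6 below, against -0.001 over all 34175 probes. The E15 replicates of scan day 3 and the others differed on several probes, in both directions. Their means were 0.25 and -0.08 on Atrx A_51_P118664 and 0.41 and -0.18 on Phf6 A_52_P209992. They were 0.08 and 0.46 on Phf6 A_52_P209334 and -0.21 and 0.05 on Cul4b. The part of the scan day in the member values was not tested. Of all probes tested, 52.8% lay above 0 at P1 and 49.45% at E15. The count of calls, by limma with Benjamini-Hochberg adjustment over all probes, was 0 of 20 member probes at P1, where 0% of all probes were called, and 0 of 22 at E15, where 0% of all probes were called. At an unadjusted p under 0.05 there were 3 of 20 member probes at P1 and 5 of 22 at E15, all higher in knockout brains. Over the whole array there were 3391 probes (9.89%) and 2318 probes (6.78%), counted in either direction and not split by direction here. Zfp711 probes A_52_P1084685 and A_52_P753819 were both among the 5 at E15, so the 5 are not 5 genes. The 95% intervals of all tested member probes lay within a 2-fold change in either direction, and their widest end was 0.81 at P1 and 0.57 at E15 on the log2 scale. So did the intervals of 98.88% of all probes at P1 and 99.21% at E15, so this is not particular to the members. The offset of 50 used in processing draws the ratios of dim probes toward 0. The intervals therefore describe the processed ratios and do not exclude a 2-fold change of the RNA.

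**Figure D1:**
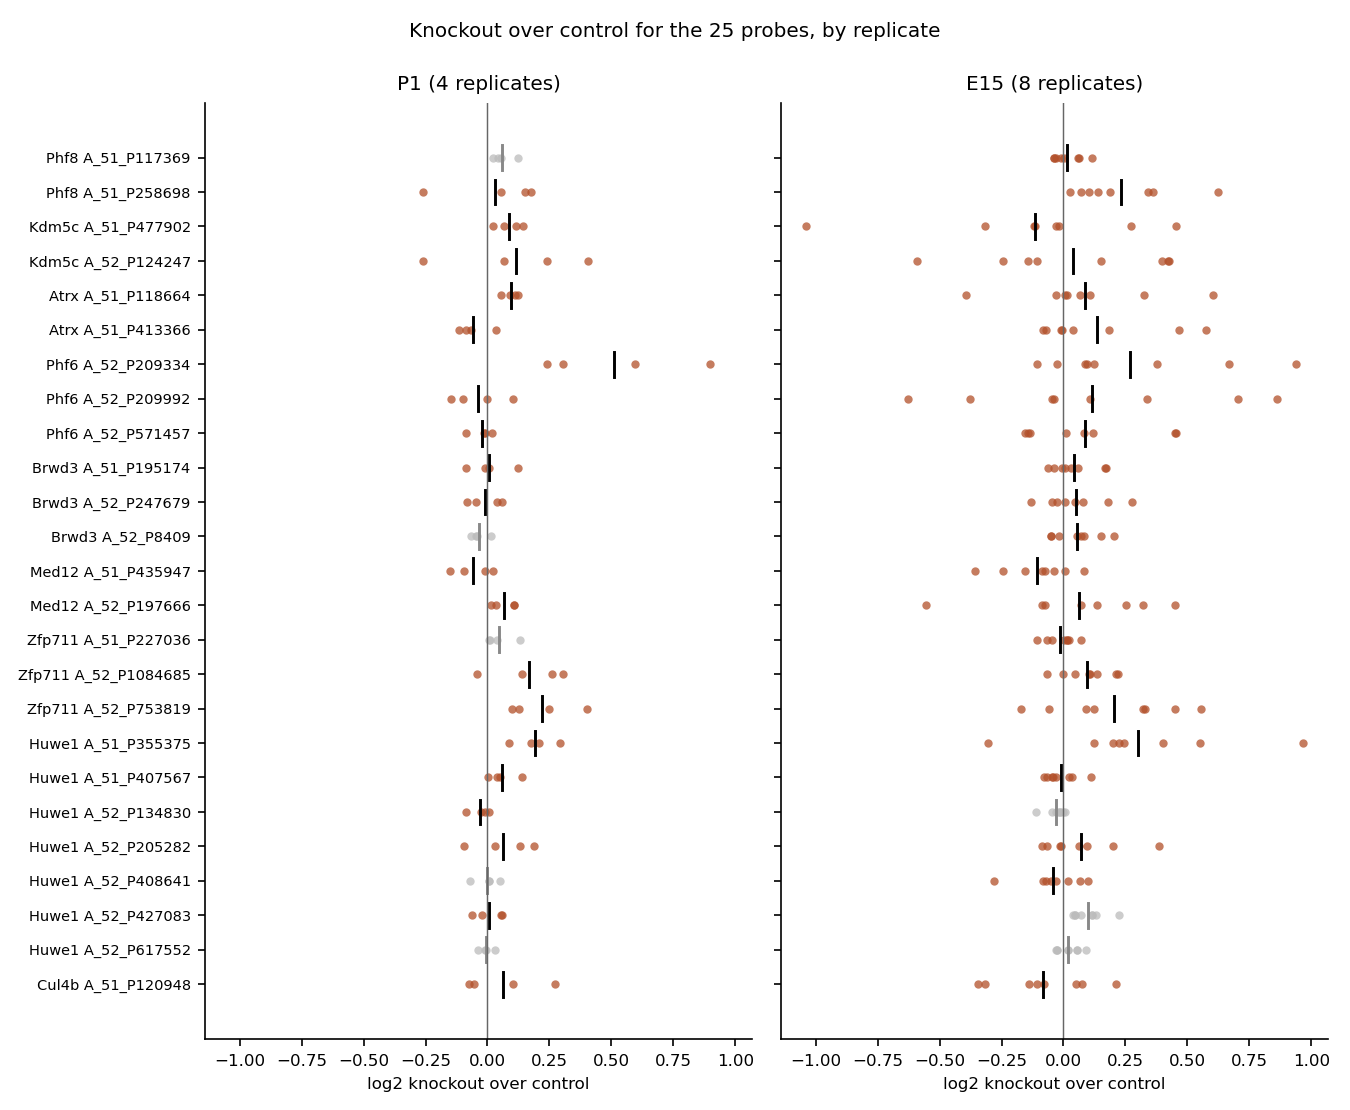
Log2 knockout over control of all 25 probes, a point for each replicate and a bar for the mean (x axis, log2 ratio, probes down the y axis), with P1 left of E15 and probes that failed the detection rule at that age in grey. Phf6 A_52_P209334 lay at 0.24 to 0.90 in the 4 P1 replicates and Phf8 A_51_P258698 at 0.02 to 0.62 in the 8 E15 replicates, while most other probes straddle 0.

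Of the demethylases, Phf8 was read by probe A_51_P258698, which the scanner files place at bases 145168094 to 145168153 of chromosome X. The files name no genome build for this or any other probe position. Its log2 knockout over control was 0.05, 0.18, -0.26 and 0.15 in P1 replicates 1 to 4, so the P1 values fell on both sides of 0 (change 0.03, SE 0.08, adjusted p = 0.933). At E15 it was 0.34, 0.10, 0.36, 0.62, 0.14, 0.02, 0.19 and 0.07 in replicates 1 to 8, above 0 in 8 of 8. The E15 change was 0.23 (SE 0.07, 95% interval 0.07 to 0.38), and it did not pass the threshold (p = 0.0091, adjusted p = 0.729). The 4 replicates of scan day 3 averaged 0.36 and the other 4 averaged 0.11. Replicates 3 and 4 rest on 1 dye orientation each, from which the mean dye effect of the age was subtracted, as does replicate 6 for this probe. The arrays of a replicate disagreed. Replicate 8, on the same control animal in both orientations, gave -0.58 with the knockout in Cy5 and 0.72 with it in Cy3. Replicate 1 gave -0.51 with the knockout in Cy5 against control 6 (control level 8.64) and 1.19 with it in Cy3 against control 1 (control level 6.57), so that there the control animal changed along with the dye. The 3 replicates highest for Phf8 were low for tissue markers. The median log2 knockout over control of the muscle list was -1.40, -0.99 and -3.50 in replicates 1, 3 and 4 and that of the meningeal list -1.54, -1.51 and -2.43, while replicate 8 had 3.05 and 2.76; the part of these tissues in the Phf8 values was not tested. Without replicates 1, 4 and 8, a choice made after seeing the data, the Phf8 change was 0.16. The other Phf8 probe, A_51_P117369 at 145159746 to 145159805, was well above background in 37.5% of P1 channels and 57.1% of E15 channels, and at E15 its change was 0.02 (SE 0.03, adjusted p = 0.891).

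**Figure D2:**
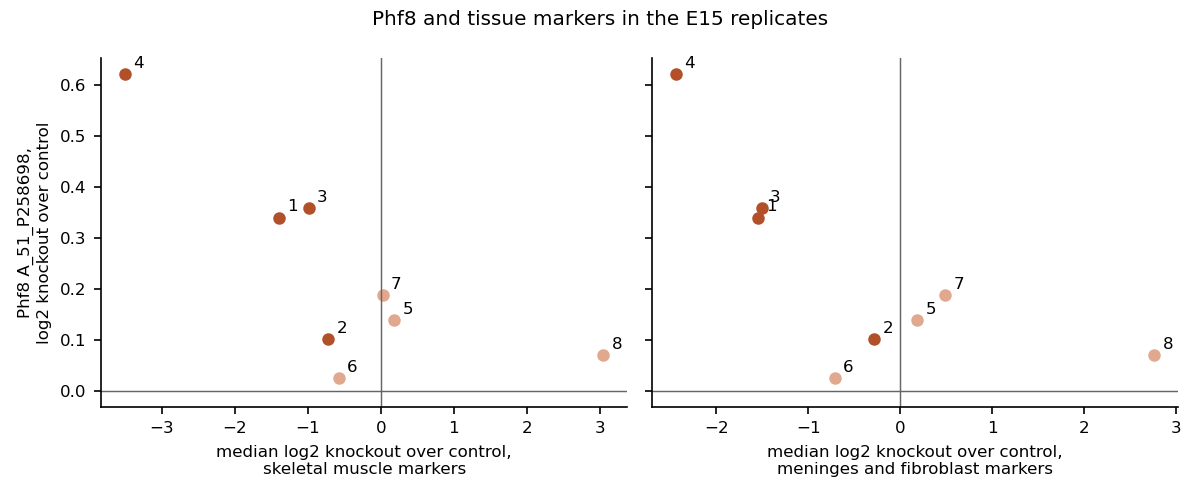
Phf8 A_51_P258698 in the 8 E15 replicates (y axis, log2 knockout over control) against the median log2 knockout over control of 8 skeletal muscle markers (left, x axis) and 10 meningeal and fibroblast markers (right, x axis), with replicate numbers beside the points and the replicates of scan day 3 in the darker colour. Replicate 4 has the highest Phf8 value, 0.62, and the lowest marker medians, -3.50 and -2.43.

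Kdm5c was read by probes A_51_P477902 (X, 145808098 to 145808157) and A_52_P124247 (X, 145808551 to 145808610), both on all channels well above background. A_51_P477902 gave 0.02, 0.07, 0.14 and 0.11 in the P1 replicates, all above 0 (change 0.09, SE 0.04, adjusted p = 0.549). At E15 it gave 0.45, -0.32, -1.04, -0.12, 0.27, -0.11, -0.03 and -0.02, with replicate 3, a value from 1 array, far below the other replicates (change -0.11, SE 0.15, adjusted p = 0.858). A_52_P124247 gave 0.24, 0.07, 0.41 and -0.26 at P1 (change 0.11, SE 0.11) and ran from -0.59 to 0.43 at E15 (change 0.04, SE 0.12). At E15 the probes had opposite signs in 6 of 8 replicates, all but 2 and 7, and lay farthest apart in replicates 1 and 3, with 0.45 and -1.04 for A_51_P477902 and -0.59 and 0.43 for A_52_P124247. The autosomal paralog Kdm5a, a demethylase of the same mark, gave 0.54, 0.17, 0.43 and 0.41 at P1, above 0 in 4 of 4 (change 0.39, SE 0.07, adjusted p = 0.380), and 0.20 at E15 (adjusted p = 0.729). The paralog Kdm5b had changes of 0.12 and 0.10 at P1 and E15, and Kdm5d, the Y-linked copy, of 0.04 and 0.03. Of the relatives of Phf8, Phf2 had changes of -0.15 and 0.05 at P1 and E15 and Kdm7a of 0.18 and 0.12.

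Atrx, the remodeller, had P1 values of 0.06 to 0.12 on probe A_51_P118664 (X, 100400568 to 100400627) and of -0.12 to 0.03 on probe A_51_P413366 (X, 100401634 to 100401693). At E15 both were highest in replicates 3 and 4, with 0.33 and 0.60 on A_51_P118664 and 0.58 and 0.47 on A_51_P413366, the 2 replicates that rest on a single array each. The other 6 replicates lay between -0.39 and 0.19. The changes were 0.08 and 0.13, with adjusted p of 0.844 and 0.749. Daxx, which works with Atrx, had changes of -0.17 at P1 and -0.03 at E15.

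Phf6 was the member with the largest change at P1, on 1 of its 3 probes. A_52_P209334, placed at X from 47434069 to 47434128 and designed on a thymus cDNA clone, gave 0.60, 0.30, 0.90 and 0.24 in the P1 replicates, and all 8 P1 arrays lay above 0, between 0.05 and 1.06. Its P1 change was 0.51, a 1.42-fold ratio (SE 0.12, 95% interval 0.20 to 0.81, p = 0.00748), which did not pass the threshold over all probes (adjusted p = 0.398). At E15 it gave 0.09, 0.38, -0.11, -0.03, 0.67, 0.94, 0.10 and 0.12 (change 0.28, SE 0.12, adjusted p = 0.729), with means of 0.08 in the replicates of scan day 3 and 0.46 in the others. The other Phf6 probes, A_52_P571457 (X, 47466755 to 47466814) and A_52_P209992 (X, 47477371 to 47477430), carry the accession of a RefSeq mRNA. At P1 they gave -0.09 to 0.02 and -0.15 to 0.10, with changes of -0.02 and -0.04, so that a higher value in knockout brains was seen on A_52_P209334 and not on the others. At E15 those probes were highest in replicates 3 and 4, at 0.46 and 0.45 on A_52_P571457 and 0.86 and 0.70 on A_52_P209992. The P1 replicates high on A_52_P209334 were low for astrocyte markers, whose median log2 knockout over control was -0.67, 0.11, -0.65 and 0.04 in replicates 1 to 4; their part in the result was not tested. The summed signal of the 8 astrocyte markers was 5289 to 15960 units in P1 knockout animals and 10710 to 21760 in P1 controls, and 0 of 7 tested passed the test.

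Brwd3 was read by 3 dim probes, A_51_P195174, A_52_P247679 and A_52_P8409. They were well above background in 75%, 81.3% and 31.3% of P1 channels and in 71.4%, 75% and 50% of E15 channels. A_52_P8409 was thus not tested at P1. Small ratios on dim probes do not show that the RNA was unchanged. The values were small on all 3 probes. They ran from -0.09 to 0.12 at P1 and from -0.13 to 0.28 at E15, and the changes at E15 were 0.04, 0.05 and 0.05 with standard errors of 0.04 to 0.05. Its relatives Brwd1 and Phip, which also hold bromodomains and WD repeats, had changes of 0.001 and -0.05 at P1 and of 0.27 and 0.30 at E15, with an adjusted p of 0.746 and 0.732 at E15.

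Med12 probe A_51_P435947 gave -0.15, 0.02, -0.01 and -0.09 at P1 (change -0.06, SE 0.05), and at E15 it lay below 0 in 6 of 8 replicates, between -0.36 and 0.08 (change -0.11, SE 0.05, p = 0.0613, adjusted p = 0.732). Med12 probe A_52_P197666 gave 0.01 to 0.11 at P1 and -0.55 to 0.45 at E15, with changes of 0.07 and 0.07. Its partners in the kinase module had changes at P1 and E15 of 0.04 and 0.05 for the kinase Cdk8, -0.08 and 0.002 for its cyclin Ccnc and 0.11 and -0.01 for Med13. The paralog Med12l had 0.07 at P1 and 0.13 at E15. Of the 32 Mediator genes, 0 passed the test at either age, with medians of 0.07 at P1 and 0.03 at E15 and 26 and 18 of 32 above 0. The 2 Mediator genes of lowest p were Med10 (0.30) and Med20 (-0.29) at P1 and Med12l (0.13) and Med23 (0.28) at E15.

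Zfp711 was read by 3 probes. A_52_P753819 (X, 107033876 to 107033935) gave 0.40, 0.13, 0.10 and 0.25 at P1, above 0 in 4 of 4 (change 0.22, SE 0.06, 95% interval 0.06 to 0.38, p = 0.0174, adjusted p = 0.438). At E15 it gave -0.17 to 0.55, above 0 in 6 of 8 replicates (change 0.21, SE 0.09, adjusted p = 0.729). A_52_P1084685 gave -0.04, 0.31, 0.26 and 0.14 at P1 (change 0.17, SE 0.07, adjusted p = 0.517) and -0.07 to 0.22 at E15, above 0 in 6 of 8 (change 0.10, SE 0.04, adjusted p = 0.729). The third probe, A_51_P227036, was well above background in 43.8% of P1 channels, too few for a test, and gave -0.01 at E15 (SE 0.03). The orientations of A_52_P753819 at P1 disagreed in replicate 2, with -0.16 with the knockout in Cy5 and 0.41 with it in Cy3, and in replicate 4, with 0.57 and -0.07. Zfx, the X-linked relative of Zfp711, had changes of -0.005 at P1 and 0.07 at E15.

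The ligase Huwe1 was read above background on all channels by probe A_51_P355375 (X, 145469184 to 145469243), the probe nearest its 3' end. It gave 0.21, 0.29, 0.18 and 0.09 in the P1 replicates, above 0 in 4 of 4 and close together (change 0.19, SE 0.05, 95% interval 0.07 to 0.31, p = 0.00973, adjusted p = 0.407). The P1 arrays with the knockout in Cy3 gave 0.34 to 0.59, and those with it in Cy5 gave 0.08, 0.19, -0.24 and -0.17, so 2 of the 4 replicates changed sign with the dye. At E15 the probe gave -0.30, 0.20, 0.97, 0.40, 0.22, 0.12, 0.24 and 0.55, above 0 in 7 of 8 (change 0.30, SE 0.12, 95% interval 0.02 to 0.57, p = 0.0361, adjusted p = 0.729). The means were 0.32 on scan day 3 and 0.29 on the other days, and the lowest and the highest value, in replicates 1 and 3, were both of day 3. Replicates 3 and 4 rest on 1 array each. At E15 the sign also changed with the dye in replicates 2 and 7. Replicate 2 gave -0.09 with the knockout in Cy5 and 0.49 with it in Cy3, against different controls, and replicate 7 gave -0.17 and 0.65. The next probe that was read on all channels, A_52_P205282, gave -0.09 to 0.19 at P1 and -0.09 to 0.39 at E15, with changes of 0.06 (SE 0.06) and 0.07 (SE 0.05).

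Detection differed between the Huwe1 probes. From the 5' end, the 7 probes were well above background in 56.3%, 56.3%, 0%, 81.3%, 100%, 31.3% and 100% of P1 channels and in 28.6%, 10.7%, 0%, 85.7%, 100%, 75% and 100% of E15 channels. The 3 probes nearest the 5' end, within 29.0 kb of each other, were thus read in at most 56.3% of channels at either age, and the probe at 29.0 kb, A_52_P617552, in none. The levels of different probes also depend on their sequence, so this order describes detection and not the amount of RNA along the gene.

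**Figure D3:**
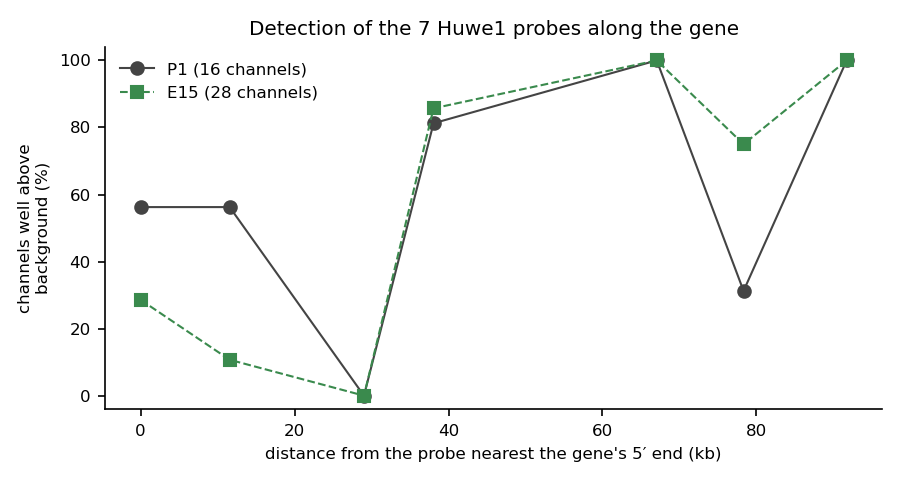
Share of channels well above background (y axis, %) for the 7 Huwe1 probes by their distance from the probe nearest the 5' end (x axis, kb), with 16 channels at P1 and 28 at E15. The probes at 67.1 and 91.7 kb were read in 100% of channels at both ages, and the probe at 29.0 kb in 0%.

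Cul4b, read by A_51_P120948 (X, 33054376 to 33054435), gave -0.08, -0.05, 0.10 and 0.27 at P1 and -0.35 to 0.21 at E15, with changes of 0.06 (SE 0.07) and -0.08 (SE 0.07). Its 2 lowest E15 values, -0.32 and -0.35, were replicates 3 and 4, the ones with 1 array each. The autosomal paralog Cul4a had changes of -0.11 at P1 and 0.06 at E15. Among 21 genes of cullin-RING ligases, 0 passed the test at either age, with medians of -0.03 at P1 and 0.05 at E15. The lowest p were those of Dtl (0.12) and Cul5 (0.15) at P1 and Cul5 (0.42, above 0 in 8 of 8) and Cul3 (0.16) at E15. Of 21 other HECT ligases 0 passed, with medians of -0.006 at P1 and 0.12 at E15, where 19 of 21 lay above 0, against 49.45% of all probes. The E15 median of this list was 0.13, 0.19, 0.35 and 0.27 in replicates 1 to 4, of scan day 3. It was 0.02, 0.18, -0.03 and -0.03 in replicates 5 to 8, and the part of the scan day was not tested. Herc1 had 0.23 at P1, above 0 in 4 of 4, and 0.31 at E15, above 0 in 7 of 8, with an adjusted p of 0.382 and 0.729, and Arel1 had 0.28 at P1. Ube3a, the ligase lost in Angelman syndrome, had -0.13 at P1 and 0.37 at E15, above 0 in 8 of 8 E15 replicates (adjusted p = 0.729). Of 14 genes whose proteins these ligases act on, 0 passed. The lowest p were those of Wdr5 (-0.19) and Mcl1 (0.31) at P1 and Cdt1 (-0.32) and Mcl1 (0.21) at E15.

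Among 20 paralogs and partners in chromatin 0 passed the test between knockout and control, with medians of -0.03 at P1 and 0.09 at E15. By replicate the E15 median was 0.10 to 0.28 in replicates 1 to 4, of scan day 3, and -0.01 to 0.06 in replicates 5 to 8. The lowest p were those of Hdac2 (-0.36) and Kdm5a (0.39) at P1 and of Kdm5a (0.20) and Rbbp4 (-0.51, below 0 in all 8 replicates) at E15. Of 36 other X-linked intellectual disability genes 0 passed at P1, and 0 of the 35 tested at E15, with medians of -0.02 and 0.07. Here the E15 median was 0.08 to 0.29 in replicates 1 to 4 and -0.01 to 0.02 in replicates 5 to 8. The part of the scan day in either list was not tested. The lowest p were those of Ogt (0.64) at P1 and of Nexmif (0.29) and Gria3 (0.18) at E15. The adjusted p of the genes named here as those of lowest p in each list were 0.347 to 0.732 over both ages.

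The test of the difference itself, the P1 change minus the E15 change, called 0 of 18 member probes that could be tested at both ages, where 0.0155% of all 32240 probes were called (0.0062% higher and 0.00931% lower), and 0 at an unadjusted p under 0.05. The differences ran from -0.20 for Phf8 A_51_P258698 (SE 0.12, 95% interval -0.45 to 0.06) to 0.22 for Phf6 A_52_P209334 (SE 0.20, 95% interval -0.21 to 0.66). Adjusted p were 0.925 or higher, and 9 of 18 differences lay above 0.

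Levels of 4 members were called lower at P1 than at E15, each on 1 probe: Kdm5c, Huwe1, Phf8 and Med12 in control animals, and Kdm5c, Huwe1 and Phf8 in knockout animals. No member probe was called higher at P1, although 9 of 24 lay above 0 in controls and 8 of 24 in knockout animals. Of all probes 38% lay above 0 in each group. Of 24 member probes tested in controls, 4 were called lower (16.7%) and 0 higher, where 21.4% of all 35236 probes were called lower, 12.4% higher and 33.7% in either direction. In knockout animals 3 of 24 (12.5%) were called lower and 0 higher, where 15.7% were called lower, 10.6% higher and 26.3% in either direction. The median log2 difference of the member probes was -0.10 in controls and -0.08 in knockout animals, against -0.08 over all probes in each. The shares are thus near or under those of the whole array. Control animals of the ages did not overlap on 4 member probes, against 9125 of all probes (25.9%).

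**Figure D4:**
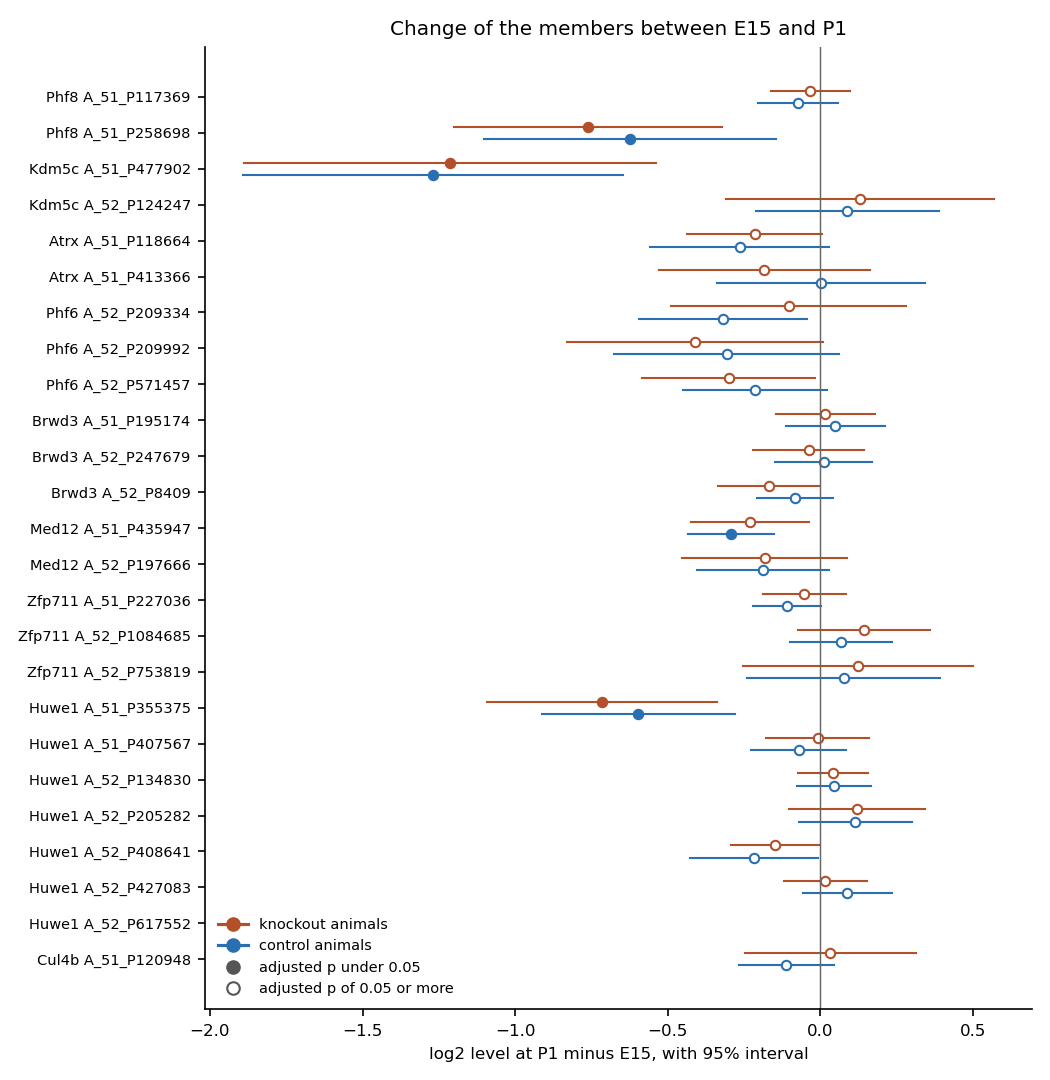
Log2 level at P1 minus E15 (x axis) for the member probes that could be tested, with 95% intervals, in knockout animals (upper line of each pair) and control animals (lower line), and filled points for an adjusted p under 0.05. Kdm5c A_51_P477902 lies farthest from 0, at -1.21 in knockout animals and -1.27 in control animals, and the other Kdm5c probe at 0.13 and 0.09.

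Kdm5c A_51_P477902 had log2 levels of 8.61, 8.75, 8.87 and 9.04 in P1 knockout animals against 9.29 to 11.04 in E15 knockout animals (median 9.92). In controls it had 8.58, 8.69, 8.73 and 8.93 at P1, against 10.58, 10.79, 9.83, 9.25, 9.40 and 10.15 in E15 controls 1 to 6. The ages did not overlap in either group. The difference was -1.21 in knockout animals (SE 0.31, adjusted p = 0.0134) and -1.27 in controls (SE 0.28, 95% interval -1.89 to -0.65, adjusted p = 0.00636), a level 2.41 times lower at P1. The other Kdm5c probe had a difference of 0.13 in knockout animals and of 0.09 in controls (95% interval -0.21 to 0.39), so the ages overlapped there.

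The A_51_P477902 level also differed between E15 scan days within the same animal. Control 3 read 10.97 in Cy3 on scan day 3 and 9.03 in Cy3 on scan day 1, and control 6 read 10.75 in Cy3 on scan day 3 and 9.98 in Cy3 on scan day 2. One of these gaps within an animal is larger and one smaller than the difference between the ages. Knockout animals scanned on day 3 lay at 9.90 to 11.04 and those of the other days at 9.29 to 9.93. With E15 controls 1 and 2 alone, both of scan day 3, the difference was -1.96, and with controls 4 and 5 alone, of the other days, it was -0.59 (adjusted p = 0.014). All P1 arrays share 1 scan day, so how much of the difference belongs to age cannot be told apart from scan and software.

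Huwe1 A_51_P355375 had 9.19, 9.54, 8.81 and 9.11 in P1 knockout animals against 9.47 to 10.47 in E15 knockout animals (median 9.84). In controls it had 8.98, 9.24, 8.63 and 9.02 at P1, against 9.94, 9.67, 9.32, 9.65, 9.50 and 9.31 at E15. All P1 controls lay below all E15 controls, and 1 P1 knockout animal lay within the E15 range. The difference was -0.71 in knockout animals (SE 0.17, adjusted p = 0.0102) and -0.60 in controls (SE 0.14, 95% interval -0.91 to -0.28, adjusted p = 0.00939), 1.51 times lower at P1. It was -0.84 against controls 1 and 2 alone and -0.61 against controls 4 and 5 alone. None of the other 5 Huwe1 probes tested was called in either group, and A_52_P205282 had 0.12 in both.

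Phf8 A_51_P258698 had 7.34, 8.01, 7.37 and 7.54 in P1 knockout animals against 7.72 to 8.75 in E15 knockout animals (median 8.32). In controls it had 7.28, 7.83, 7.63 and 7.38 at P1, against 7.39 to 8.61 at E15 (median 8.13). The groups overlapped through P1 animal 2 in knockouts and through E15 control 1 in controls, which is the animal with the highest muscle and meningeal signal. The difference was -0.76 in knockout animals (SE 0.20, adjusted p = 0.0161) and -0.62 in controls (SE 0.22, adjusted p = 0.0470). The call in controls was lost without any 1 of E15 controls 2 to 6 or P1 controls 1, 3 and 4, at adjusted p of 0.0687 to 0.121, as well as with no filter on dim probes (adjusted p = 0.0554) and with quantile normalization (adjusted p = 0.0628), and it was kept without E15 control 1 (-0.75, adjusted p = 0.00306). Against E15 controls 1 and 2 alone the difference was -0.24 (adjusted p = 0.499), and against controls 4 and 5 alone -1.06. In knockout animals it was lost without P1 animal 1 or 3, at adjusted p of 0.0519 and 0.0549, and with E15 replicates 1 to 4 alone, all of scan day 3 (-0.62, adjusted p = 0.0723).

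Med12 A_51_P435947 had 6.20, 6.40, 6.38 and 6.38 in P1 knockout animals against 6.33 to 6.79 in E15 knockout animals (median 6.57). In controls it had 6.35, 6.38, 6.38 and 6.48 at P1, against 6.85, 6.60, 6.73, 6.63, 6.71 and 6.63 at E15, with no overlap. The difference was -0.23 in knockout animals (SE 0.09, adjusted p = 0.0736) and -0.29 in controls (SE 0.06, adjusted p = 0.00586), so the threshold was passed in controls only. In knockout animals it was also passed with the scanner's processed signals (-0.64, adjusted p = 0.0378), with quantile normalization (adjusted p = 0.0452), without E15 replicate 3 or 4 (adjusted p of 0.0483 and 0.0343) and with E15 replicates 5 to 8 alone (-0.34, adjusted p = 0.0156). The difference between knockout and control animals in the change with age was 0.05 for this probe (SE 0.08, 95% interval -0.12 to 0.22, adjusted p = 0.962). Med12 A_52_P197666 had -0.18 in knockout animals and -0.19 in controls, neither past the threshold. With E15 controls 4 and 5 alone the difference of A_51_P435947 in controls was -0.27 and no longer passed (adjusted p = 0.0622).

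**Figure D5:**
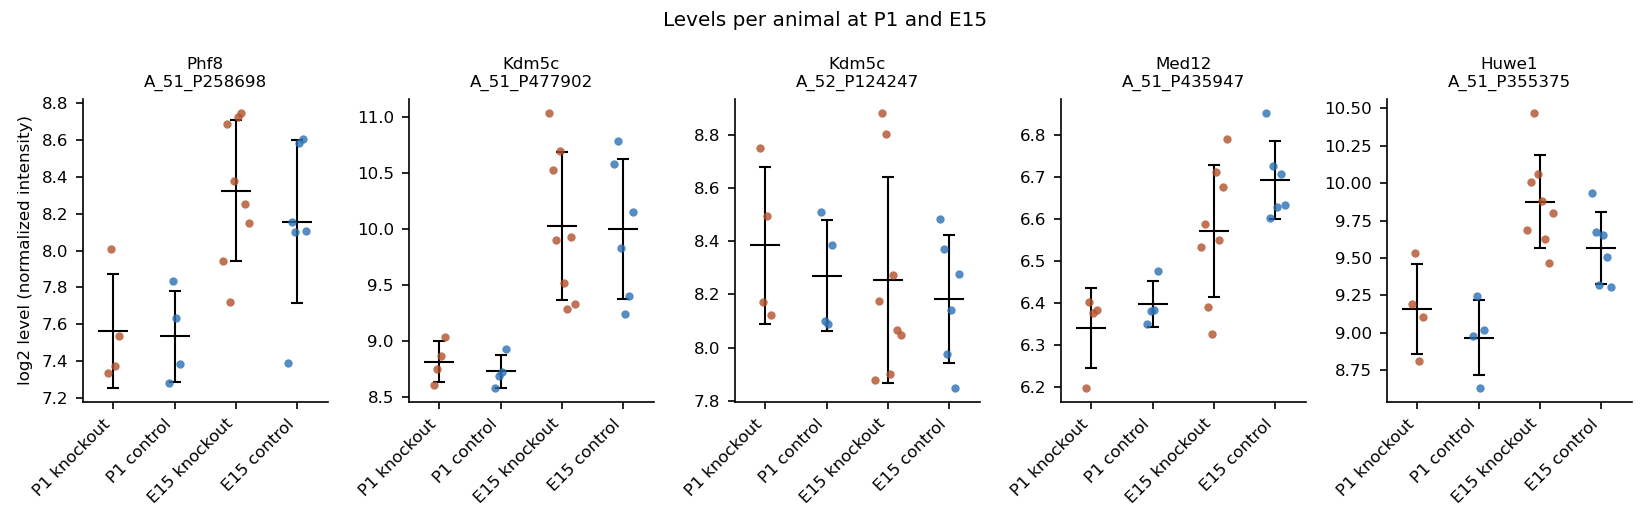
Log2 levels per animal (y axis, each panel with its own scale) of 5 probes in P1 knockout, P1 control, E15 knockout and E15 control animals, with the mean and SD of each group as bars. On Kdm5c A_51_P477902 the P1 animals lie at 8.58 to 9.04 and the E15 animals at 9.25 to 11.04, and on Kdm5c A_52_P124247 the ages overlap.

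The remaining members had no called difference between the ages in either group. On the 3 Phf6 probes the differences were -0.10, -0.41 and -0.30 in knockout animals and -0.32, -0.31 and -0.21 in controls, all below 0. Atrx A_51_P118664 had -0.21 in knockout animals and -0.26 in controls, with adjusted p of 0.138 and 0.148, and Atrx A_51_P413366 had -0.18 and 0.002. Cul4b had 0.03 in knockout animals and -0.11 in controls, with a 95% interval of -0.27 to 0.04 in controls. Brwd3 probes lay between -0.17 and 0.02 in knockout animals and between -0.08 and 0.05 in controls. Of the Zfp711 probes, A_51_P227036 was lower in all P1 controls (5.92 to 5.99) than in all E15 controls (6.00 to 6.10), by 0.11 and with an adjusted p of 0.116, and the other 2 had 0.07 and 0.08 in controls.

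Marker RNAs of several cell types also differed between the ages. In controls 7 of 12 markers of progenitors were called lower at P1 and 1 higher, with a median of -0.48, and summed signals of 13960 to 28390 units at P1 and 15380 to 18640 at E15. Of 12 markers of neurons 7 were called higher (median 0.77, sums of 25730 to 30710 at P1 and 15710 to 23450 at E15), and of 7 astrocyte markers 5 (median 0.78, sums of 10710 to 21760 at P1 and 2985 to 4027 at E15). Oligodendrocyte and microglial markers had 2 called higher each, of 8 and 7 tested, and 0 lower. Other lists ran lower at P1. Of 7 erythroid markers 6 were called lower (median -0.91, sums of 1812 to 3500 at P1 and 5222 to 14230 at E15), of 10 meningeal markers 4 (median -1.30) and of 8 endothelial markers 3 (median -0.24, sums of 1566 to 1934 at P1 and 1888 to 3073 at E15), with 0 above 0 in each list. Of 7 muscle markers 0 passed, with a median of -0.97 and all below 0, and of 6 choroid plexus markers 2 were called lower and 1 higher (median -0.57). Except for 1 erythroid marker, these markers were well above background in at least 50% of channels at both ages. Their part in the lower levels of Kdm5c, Huwe1, Phf8 and Med12 was not tested.

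The genes around the members are given next, at P1 against E15 in controls. Among 20 chromatin paralogs and partners 9 were called lower and 0 higher, with a median of -0.39, led by Rest (-1.06), the repressor of neuronal genes, the deacetylase Hdac2 (-0.93), the methyltransferase Ehmt1 (-0.92) and the histone-binding Rbbp4 (-0.89). Brwd1 (-0.78), Kdm7a (-0.68), Daxx (-0.59) and Zfx (-0.46) were among the 9, while Kdm5a (-0.07), Kdm5b (-0.18), Phf2 (-0.16) and Phip (0.30) did not pass. Kdm5d, the Y-linked copy, was lower by 0.33 (adjusted p = 0.0110), and the part of the sex of the animals in this was not tested. Of 32 Mediator genes 10 were called lower and 0 higher (median -0.17), with Med13 at -1.31, Med22 at -0.82, Med17 at -0.80, Med1 at -0.80 and Cdk8 at -0.35, while Ccnc (-0.11) and Med12l (0.05) did not pass.

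Of 21 cullin-RING genes 7 were called lower and 2 higher (median -0.10). Rnf7 (-0.92), a RING subunit, Dtl (-0.87), the receptor that brings Cdt1 to the ligase, Det1 (-0.75) and Dcaf8 (-0.70) were lower, and Cul7 (0.70) and Dcaf7 (0.58) were higher, while Cul4a was at 0.002 (adjusted p = 0.994). Of 21 HECT ligases 4 were called higher, Wwp1 (1.13), Nedd4 (1.09), Herc1 (0.94) and Ube3c (0.89), and 4 lower, Trip12 (-0.74), Wwp2 (-0.72), Itch (-0.56) and Herc4 (-0.45), and Ube3a had 0.22 (adjusted p = 0.513). Of 14 substrates 6 were lower, led by Trp53 (-1.08), the replication licensing factor Cdt1 (-0.88), Mycn (-0.75) and Zbtb17 (-0.64), and 2 higher, Atoh1 (0.55) and Kmt5a (0.31). Of 36 other X-linked intellectual disability genes 9 were higher, led by the synaptic vesicle protein Syp (1.36), Tspan7 (1.15), Nexmif (1.13) and Upf3b (0.98), and 8 lower, led by Ogt (-0.93), the cohesin subunit Smc1a (-0.77), Bcor (-0.64) and Cask (-0.49). The medians of these lists stood beside -0.08 over all probes, and members of a list were chosen for their role and not as a sample of genes.

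Probes of the same gene differed in how far they followed each other across animals. Over the 22 animals Pearson's r between probes was 0.23 for Kdm5c, 0.14 for Phf8, 0.02 for Atrx, 0.07 for Med12, -0.42 to 0.44 for Phf6 and 0.01 to 0.43 for Brwd3, while the 3 Zfp711 pairs had 0.53 to 0.77. The 21 pairs of Huwe1 probes, dim probes included, ran from -0.57 to 0.56. Levels were first centred on the mean of their age and genotype, and the animals still share arrays and scan days, so these values are a description. Over the same 22 animals, with levels centred likewise, and 16397 genes, the genes most like the brightest probe of each member by Pearson's r were Scnm1 (0.92) and Pomgnt2 (0.88) for Phf8, Ly6g5b (0.95) and Vmn1r201 (0.95) for Kdm5c, Nupl1 (0.85) and Rheb (0.85) for Atrx, and Papolg (0.89) and Celf2 (0.88) for Phf6. They were Ltn1 (0.85) and Fmr1 (0.84) for Brwd3, Gga2 (0.84) and Dnajc10 (0.82) for Med12, Fastkd1 (0.93) and Socs4 (0.91) for Zfp711, Ylpm1 (0.85) and Msh6 (0.84) for Huwe1, and Nudc (0.86) and Pxk (0.83) for Cul4b.

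The promoters of the 4 genes with a probe called lower at P1 are shown because the calls between the ages rest on those genes, each on 1 of its probes. They run from 250 bases before to 50 after the start of the gene, from RefSeq on build GRCm38.p6, which is not joined to the positions of the probes. The table matched 7 of the 9 members, all but Phf6 and Zfp711. Capitals mark core motifs of YY1 (AAGATGGC), ZBTB33 (CTCGCGAG) and CREB (TGACGTCA), searched on both strands. Phf8 is at chrX:151520422-151520721 on the plus strand, Kdm5c at chrX:152232977-152233276 on the plus strand, Med12 at chrX:101273841-101274140 on the plus strand and Huwe1 at chrX:151803032-151803331 on the plus strand.
Phf8: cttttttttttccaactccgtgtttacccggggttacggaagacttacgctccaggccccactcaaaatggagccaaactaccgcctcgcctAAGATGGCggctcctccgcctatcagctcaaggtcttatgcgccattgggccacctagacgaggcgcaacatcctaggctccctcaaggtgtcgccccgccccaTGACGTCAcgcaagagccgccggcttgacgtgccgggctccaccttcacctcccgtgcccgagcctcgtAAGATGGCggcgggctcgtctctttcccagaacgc
Kdm5c: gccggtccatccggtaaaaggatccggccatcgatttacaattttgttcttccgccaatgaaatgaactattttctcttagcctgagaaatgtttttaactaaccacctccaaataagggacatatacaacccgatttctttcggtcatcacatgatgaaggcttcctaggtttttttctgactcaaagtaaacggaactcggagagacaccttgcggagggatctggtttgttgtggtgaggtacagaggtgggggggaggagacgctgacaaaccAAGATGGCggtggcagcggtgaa
Med12: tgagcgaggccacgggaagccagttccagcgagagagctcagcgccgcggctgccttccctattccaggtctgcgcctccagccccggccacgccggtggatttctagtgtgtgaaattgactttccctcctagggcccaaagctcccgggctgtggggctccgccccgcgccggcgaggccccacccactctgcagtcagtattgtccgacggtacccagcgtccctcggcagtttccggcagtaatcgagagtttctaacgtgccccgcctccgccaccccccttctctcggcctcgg
Huwe1: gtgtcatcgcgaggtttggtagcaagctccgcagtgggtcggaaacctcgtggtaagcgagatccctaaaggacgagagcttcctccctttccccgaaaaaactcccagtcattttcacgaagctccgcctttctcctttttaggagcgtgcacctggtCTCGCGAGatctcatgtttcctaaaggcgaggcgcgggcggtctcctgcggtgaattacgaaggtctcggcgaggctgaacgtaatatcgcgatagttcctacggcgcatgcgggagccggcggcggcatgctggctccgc
The YY1 motif was found in Phf8, with 2 matches, and in Kdm5c, with 1, and in 2.75% of all 32851 promoter windows. The ZBTB33 motif was found in Huwe1 and in 0.919% of windows, and the CREB motif in Phf8 and in 1.79%. The motif AGGCCT of ZFX and ZNF711 was in none of the 7 member windows and in 10.3% of all. Med12 held none of these letters. The windows of Phf8, Kdm5c, Med12 and Huwe1 had 61%, 47%, 66.3% and 58.3% of G and C and 26, 13, 27 and 31 CpG pairs, against medians of 52.7% and 7 over all windows. A match of letters describes a window and does not show that a factor binds there.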

How the data were processed

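The authors deposited, per the file headers, the mean spot intensity and the local background's median intensity in both dyes, processed intensities (spatial detrend and LOWESS dye normalization in the scanner software, version 8.5.1.1 at P1 and 8.1.1.1 at E15) and log10 ratios of Cy5 over Cy3 processed signal. Per the labels, total RNA of frozen brain slices was treated with DNase and amplified linearly. Intensities were corrected by normexp (offset 50) and normalized by loess within each array. Spots marked as outliers were dropped, ratios were turned to knockout over control, and the arrays of a replicate were averaged. Where a replicate had 1 orientation, the mean dye effect of its age was subtracted. Probes well above background in at least 50% of channels, with at least 3 replicate values at P1 and 4 at E15, were tested one by one with limma 3.58.1 in R 4.3.3 (data.table version 1.17.8, statmod 1.5.0; figures with matplotlib 3.10.9 in Python 3.11.15), with Benjamini-Hochberg adjustment over all probes and a threshold of 0.05. At E15 the control-sharing set was a random block (consensus correlation 0.0453, and 0.0651 for the difference between the ages). Levels are Aquantile-normalized log2 intensities averaged per animal. The number of arrays limits the precision. P1 control labels carry no number, and each P1 control was taken as the animal on its replicate's arrays. Of 41174 probes 31658 had a symbol, by accession, symbol or synonym in the RefSeq gene list of GRCm38.p6. Exon and intron positions were not analysed here. Named genes of a list are those past the threshold, at most 4 in each direction, or the 2 of lowest p where none passed, by their brightest probe, with the closest paralogs and partners always named; a gene that this rule would name is not reported here. The members and lists were chosen with earlier results of these data known. The fits were tested on simulated data, and the alternatives tried are given in the closing section.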

Additional observations from a re-analysis of the deposited data

Results flagged for a closer look

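Of 100 groups of member values looked at for a sample far from the others, 5 stood out, about the share that chance gives (1 in 20). Atrx A_51_P413366 had a mean log2 level of 6.98 in P1 knockout 4 and of 7.10 in P1 control 4, which stood apart from 6.25 to 6.36 in the other 3 P1 controls. These means rest on 1 high array. With the control in Cy3 the knockout read 7.51 and the control 7.75, and with the control in Cy5 they read 6.45 and 6.44. Phf6 A_52_P571457 had 6.44 in P1 knockout 4 and 6.46 in P1 control 4, with 6.03 to 6.09 in the other 3 P1 controls. Huwe1 A_52_P205282 had 6.45 in P1 control 4, against 6.60 to 6.61. Huwe1 A_52_P408641 had 6.46 in E15 control 4, against 5.92 to 6.10 in the other 5. Huwe1 A_52_P134830, below the detection rule at E15, had a log2 knockout over control of -0.11 in E15 replicate 7, against -0.04 to 0.005 in the other 7. No difference between the ages in the effect of the knockout was called for a member.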

How the results depend on the processing

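No alternative called a member between knockout and control at P1 or E15, or for the difference between the ages, and no called value changed sign. Between the ages, the scanner's processed signals called 7 member probes in knockout animals and 7 in controls, against 3 and 4 as reported, adding in controls Zfp711 A_51_P227036 (-0.74), Huwe1 A_52_P408641 (-1.19) and Huwe1 A_52_P427083 (0.70). Leaving out E15 controls 1 and 2, a choice made after seeing the data, called 7 in controls. Leaving out 1 animal at a time called 2 to 5 member probes in knockout animals and 3 to 6 in controls. The cause was not tested. The called difference of Med12 A_51_P435947 in controls, -0.29, was -0.71 with the processed signals and -0.50 with an offset of 10. Over all probes, counts between knockout and control were 0 as reported and 1 at E15 with the processed signals or the deposited ratios, and 1 at P1 without replicate 4. The difference between the ages called 5 probes as reported, 60 without P1 replicate 4, 12 without P1 replicate 2 or 3, 15 with no filter, 3 with no dye effect subtracted, 1 with the strict filter or without E15 replicates 1, 4 and 8, and 0 with the processed signals, an offset of 10, outlier spots kept, the deposited ratios, single orientations left out, the replicate block or E15 replicates 1 to 4 or 5 to 8 alone. Levels between the ages called 5038 probes in knockout animals with the strict filter, against 9277, and 7240 in controls, against 11885, or 7710 with E15 controls 4 and 5 alone. The median of all probes in controls shifted by -0.08 as reported, by -0.20 with the processed signals, by -0.14 with an offset of 10 and by -0.12 with median centring alone. Equal replicate numbers at the ages stand for different animals. Their deviations correlated at -0.13, -0.07, 0.13 and 0.15 over 31294 probes, which cannot show whether the numbers carry a meaning. P1 replicates 1 to 4 were most like E15 replicates 6, 8, 3 and 4. A replicate block left 0 member probes called for the difference and 3 in knockout animals. Subsets of animals were fitted without the control-sharing block. Scan day as a block was not run at P1, where all arrays share a day. Dim probes limit detection: 5 member probes could not be tested at P1 and 3 at E15.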

Other observations

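The 2 genes whose levels were most like Kdm5c A_51_P477902 over the 22 animals, Ly6g5b and Vmn1r201 (Pearson's r of 0.95 each), are a gene of the major histocompatibility region and a vomeronasal receptor gene, and r with the other Kdm5c probe was 0.23. Levels were centred on the mean of their age and genotype, the animals share arrays and scan days, and no explanation was tested.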
